A study of Homo sapiens with 6 samples.

Results

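The genes described here encode the proteasome, its assembly factors and NFE2L1, a transcription factor of proteasome genes, in HOS, a cell line from a human osteosarcoma. They were chosen by symbol: PSMA, PSMB, PSMC, PSMD, PSME or PSMG followed by a digit, without hyphenated symbols and without the immunoproteasome subunits PSMB8, PSMB9 and PSMB10, plus NFE2L1 and POMP. This gave 45 of the 16376 genes in the deposited table, and all 45 passed the filter on low values. HOS cells given Agrimol B, a plant polyphenol named after agrimony, for 24 h (3 libraries) were compared with control HOS cells whose treatment is listed as none (3 libraries). The genotype is given as WT in both groups. The dose of Agrimol B, any solvent given to the control cells and the time of the control cells are not stated in the sources used here. No label ties the replicates to separate cultures, so the p-values measure the spread between libraries, which may be technical. PSMC3IP, which the symbol rule includes, encodes a cofactor of recombination and is no part of the proteasome. The symbols PSMA8 and PSMB11, the subunits of testis and thymus proteasomes, were not found in the table.

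The proteasome is the protease that degrades proteins tagged with ubiquitin. Its 20S core is a barrel of alpha and beta rings with the proteolytic sites inside. Its 19S cap has a base, whose ring of ATPases unfolds the substrate, and a lid, which removes the ubiquitin. Dedicated chaperones put the core and the base together. NFE2L1 is made as a protein of the endoplasmic reticulum, and it is known to raise transcription of many subunit genes together when proteasome activity is blocked.

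Levels are FPKM (fragments per kilobase of transcript, scaled by the mapped fragments of the library), computed by the authors. FPKM is scaled to transcript length, so levels of different genes may be set side by side. Differences were tested with limma on log2(FPKM + 1), and "rose" or "fell" is used where the Benjamini-Hochberg adjusted p over all 12143 tested genes was under 0.05. A fold is the ratio of group means of FPKM, and single values follow the order of replicates 1, 2 and 3. Total FPKM per library lay between 352990 and 359537. Depth relative to control replicate 1, read from genes with very few reads, was 1.00 to 1.19 in Agrimol B libraries and 0.99 to 1.04 in the other control libraries, while the absolute number of reads is unknown. Of 10 osteoblast and mesenchymal markers, 9 were in the table. Their summed FPKM was 1050.0 to 1114 with Agrimol B and 1515 to 1611 in control libraries, SP7 was not in the table, BGLAP reached at most 0.221 FPKM, and 6 of the 8 tested fell. The epithelial marker EPCAM stood at 12.8, 14.7 and 14.4 FPKM with Agrimol B and at 14.3, 13.0 and 13.9 FPKM in control libraries. KRT5, another epithelial marker, stood at 10.4 FPKM in Agrimol B replicate 3 and under 1 FPKM in the other 5 libraries. The 4 endothelial markers summed to 0.336 to 0.340 FPKM with Agrimol B and 0.537 to 0.817 FPKM in control libraries. Among them KDR stood higher with Agrimol B (0.250 to 0.279 FPKM) than in control libraries (0.0535 to 0.0667 FPKM), and PECAM1 was at most 0.0158 FPKM with Agrimol B and 0.0391 FPKM in control libraries. Of 4 leukocyte markers 2 were in the table: the defining marker PTPRC was at 0 in 5 of 6 libraries and at 0.0578 FPKM in Agrimol B replicate 2, and CD14 fell, to 0.393 to 0.774 FPKM with Agrimol B, against 1.19 to 1.81 FPKM in control libraries. The part of these marker differences in the results below was not tested.

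The proteasome genes changed little after Agrimol B, and in both directions. Of the 45, 8 rose, 7 fell and 30 did not pass the test, so 33.3% changed, where 52.0% of all tested genes did. The rises made up 17.8% of the proteasome genes, against 30.6% of all tested genes, and the falls 15.6% against 21.4%. Every proteasome gene averaged 10 FPKM or more, and of the 6435 tested genes at that level 54.7% changed. The risen genes were PSMA7, PSMB4, PSMB7, PSMC4, PSMD2, PSMD4, PSMD8 and PSMD9, and the fallen genes were PSMA3, PSMB2, PSMC1, PSMC2, PSMC3, PSME2 and PSME3. Without Agrimol B replicate 2, 5 rose and 6 fell. With median-ratio scaling of the libraries 6 rose and 10 fell, and with quantile normalization 9 rose and 10 fell. In bulk libraries, fewer cells that express a gene and less of its RNA per cell cannot be told apart.

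The sizes of the differences were small. The median log2 difference was -0.07 over the proteasome genes and 0.07 over all tested genes, and the median absolute log2 difference was 0.185 over the proteasome genes and 0.271 over all tested genes. None of the 45 reached a log2 difference of 1 in either direction, which 4.21% of all tested genes did. The largest difference was that of NFE2L1 (0.59), which did not pass the test. For 23 of the 30 genes that did not pass, the 95% interval of the difference lay within 1.5-fold in both directions. In 23 of the 45 genes, or 51.1%, the Agrimol B values did not overlap the control values, 12 above and 11 below, as did those of 62.2% of all tested genes.

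**Figure D1:**
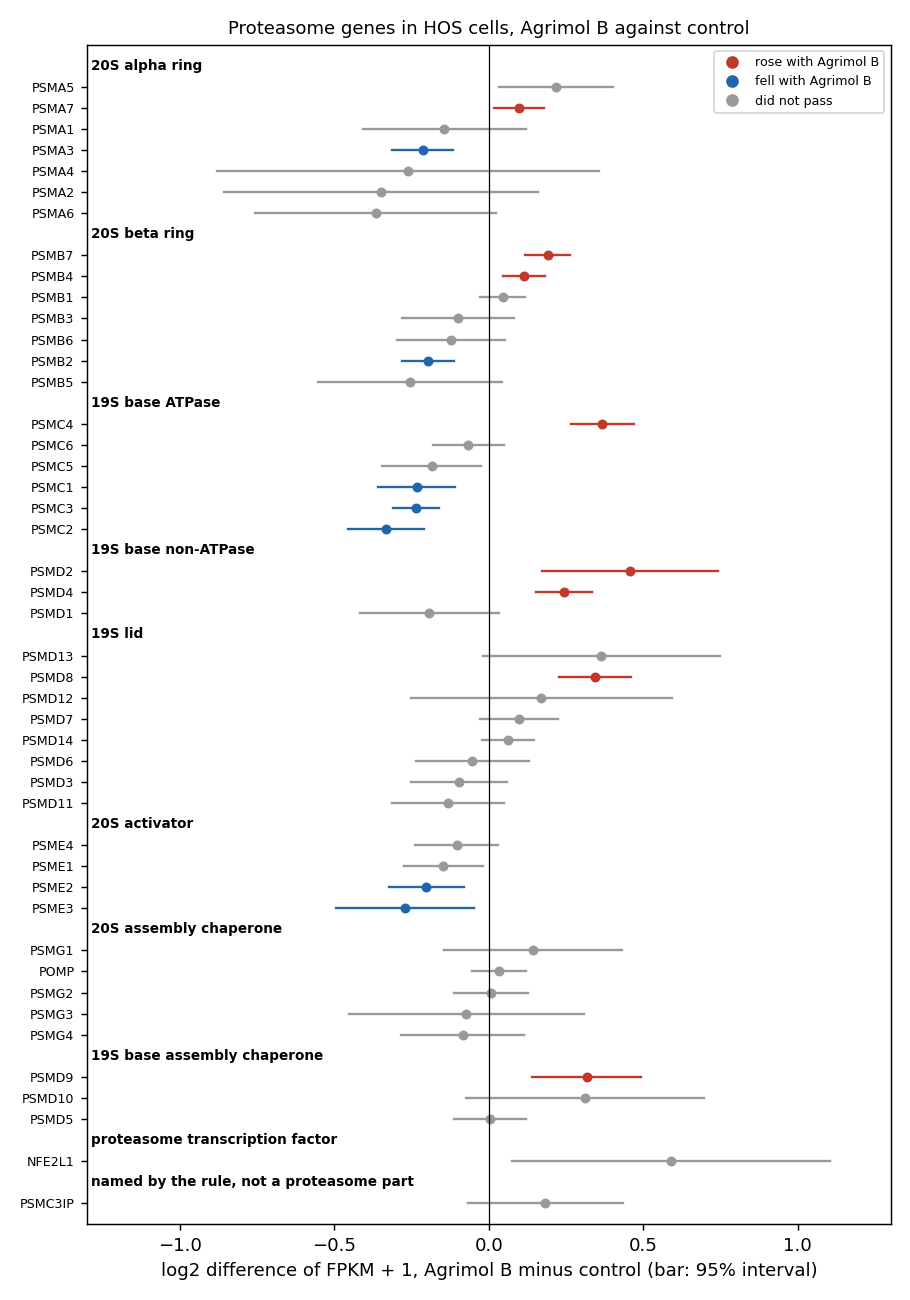
Log2 difference of FPKM + 1, Agrimol B minus control, for the 45 genes by role, with 95% intervals from limma (n = 3 libraries per group). Red points rose, blue points fell and grey points did not pass the test. Within the alpha ring, the beta ring and the ATPase ring, red and blue points stand together.

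Promoter sequences of 4 genes are shown here because they stand for both directions of change and carry the motifs counted next: PSMD9 and PSMD8 rose, PSMC2 and PSMC3 fell. Each is the 250 bases before the RefSeq start on GRCh38.p14, 5′ to 3′ on the strand of the gene. Capitals mark TGACNNNGC or TGAGTCAGC in PSMD9, on either strand, and CCAAT, on either strand, in the other 3 genes. The PSMC2 window lies inside the GENCODE gene, which has an earlier start.
PSMD9 (chr12:121888540-121888789, plus strand): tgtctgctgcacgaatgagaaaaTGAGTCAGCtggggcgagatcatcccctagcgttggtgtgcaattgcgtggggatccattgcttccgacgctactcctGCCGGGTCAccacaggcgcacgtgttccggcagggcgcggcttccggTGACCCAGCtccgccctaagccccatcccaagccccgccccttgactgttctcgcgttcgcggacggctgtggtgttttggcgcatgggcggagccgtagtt
PSMD8 (chr19:38374321-38374570, plus strand): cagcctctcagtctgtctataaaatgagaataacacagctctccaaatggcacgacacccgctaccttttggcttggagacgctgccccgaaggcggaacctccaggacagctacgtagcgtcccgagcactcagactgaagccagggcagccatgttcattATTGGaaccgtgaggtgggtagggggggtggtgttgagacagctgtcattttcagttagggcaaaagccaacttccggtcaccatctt
PSMC2 (chr7:103347393-103347642, plus strand): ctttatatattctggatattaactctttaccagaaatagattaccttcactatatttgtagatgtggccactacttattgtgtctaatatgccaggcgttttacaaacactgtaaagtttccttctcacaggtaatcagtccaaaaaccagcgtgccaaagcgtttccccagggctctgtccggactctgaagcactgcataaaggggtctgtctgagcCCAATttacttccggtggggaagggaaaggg
PSMC3 (chr11:47426440-47426689, minus strand): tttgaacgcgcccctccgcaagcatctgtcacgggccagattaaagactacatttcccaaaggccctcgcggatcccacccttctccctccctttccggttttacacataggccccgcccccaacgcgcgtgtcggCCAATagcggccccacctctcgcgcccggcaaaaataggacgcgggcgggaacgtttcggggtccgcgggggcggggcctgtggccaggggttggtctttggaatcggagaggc

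TGACNNNGC is the core of the antioxidant response element, to which NFE2L1 and its relative NFE2L2 bind together with small MAF proteins, and CCAAT is the box bound by NF-Y. Promoter windows from 250 bases before to 50 bases after the start were found for 39 of the 45 genes. None was matched for PSMA7, PSMB1, PSMB6, PSMB7, PSMD4 and PSMG3. A gene was counted where any of its windows held the motif on either strand, and 8 of the 39 had more than 1 window. TGACNNNGC was held by 14 of the 39 genes (35.9%), against 16.1% of 27305 genes with a window. Of those 14, 2 rose (PSMC4 and PSMD9), 1 fell (PSME2) and 11 did not pass. In PSMD9 the motif lies 102 bases before the start on the plus strand and 149 bases before it on the minus strand, and TGAGTCAGC lies 227 bases before it. In PSMC4 it lies on the minus strand, 28 to 36 bases into the transcript. CCAAT was held by 20 of the 39 genes (51.3%), against 39.7% of all. It was held by 5 of 7 fallen genes (PSMA3, PSMB2, PSMC2, PSMC3 and PSME3), by 1 of 5 risen genes with a window (PSMD8) and by 14 of 27 that did not pass.

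Of 9 motifs searched with the values already known, the other 7 gave the following shares. CCGGAAG, an ETS site, was held by 38.5% of the proteasome genes and 12.2% of all genes, and by 2 of 5 risen and 2 of 7 fallen genes. GGAAGTG, a further ETS form, was held by 25.6% and 13.4%, by 2 of 5 risen and 0 of 7 fallen genes. The site of nuclear respiratory factor 1 was held by 12.8% and 6.98%, and the E-box CACGTG by 7.69% and 8.77%. TGAGTCAGC was held by 2.56% (PSMD9 alone) and 0.564%. TGACTCAGC, which is also a form of TGACNNNGC, and TGATGNAA, the core of the ATF4 site, were found in 0 of the 39 genes, against 0.689% and 4.46% of all genes. These matches describe letters in the windows and no binding was measured.

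The alpha ring forms the gate of the 20S core. Of its 7 genes, PSMA7 rose, PSMA3 fell and 5 did not pass (median log2 difference -0.21). Thus 28.6% changed, against 52.0% of all tested genes. PSMA7 was the most abundant transcript of the 45, at 623, 603 and 588 FPKM with Agrimol B and 574, 564 and 557 FPKM in control libraries. The groups did not overlap, but the difference was only 1.07-fold (log2 difference 0.10 ± 0.03 SE, adjusted p = 0.0494). It no longer passed after any of 5 libraries was dropped, all but Agrimol B replicate 3 (adjusted p 0.0726 to 0.127), with median-ratio scaling (0.528) and under 3 other settings, within a range of 0.00189 to 0.528 over all alternatives. PSMA3 stood at 109, 105 and 103 FPKM with Agrimol B and 122, 119.8 and 127 FPKM in control libraries. All its Agrimol B values were lower, by 1.16-fold in the means (log2 difference -0.21 ± 0.04 SE, adjusted p = 0.00591). It overlaps the annotated gene AL132989.1 on its strand.

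The other alpha subunits varied more between libraries than they differed between groups, or came close to the threshold. PSMA5 stood at 49.9, 56.0 and 46.4 FPKM with Agrimol B and 41.6, 44.3 and 44.3 FPKM in control libraries, without overlap (adjusted p = 0.0518; 0.0248 without Agrimol B replicate 3). PSMA6 stood at 64.9, 61.4 and 52.6 FPKM with Agrimol B and 97.2, 65.3 and 71.6 FPKM in control libraries (adjusted p = 0.0996). Control replicate 1 was the highest of its values. PSMA4 stood at 112, 129 and 125 FPKM with Agrimol B and 179, 183 and 95.6 FPKM in control libraries. Control replicate 3 alone lay below the Agrimol B values, and the adjusted p of 0.422 became 0.00315 without it (log2 difference -0.57 in place of -0.26). PSMA2 (54.3, 58.4 and 35.4 FPKM with Agrimol B, 51.7, 68.9 and 66.0 FPKM in control libraries) and PSMA1 (85.4, 69.5 and 83.6 FPKM, and 77.4, 93.0 and 93.4 FPKM) overlapped between groups.

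The beta ring carries the proteolytic sites: PSMB5 has the chymotrypsin-like, PSMB6 the caspase-like and PSMB7 the trypsin-like activity. Of its 7 genes, PSMB7 and PSMB4 rose, PSMB2 fell and 4 did not pass, so 42.9% changed, where 52.0% of all tested genes did. PSMB7 stood at 224, 229 and 229 FPKM with Agrimol B and 197, 199 and 201 FPKM in control libraries. That is 1.14-fold higher, with replicates within a few FPKM of each other (log2 difference 0.19 ± 0.03 SE, adjusted p = 0.00291). PSMB2 stood at 48.3, 48.7 and 49.5 FPKM with Agrimol B and 56.9, 55.5 and 56.1 FPKM in control libraries, 1.15-fold lower (log2 difference -0.20 ± 0.03 SE, adjusted p = 0.00429). The structural subunit PSMB4 stood at 372, 373 and 365 FPKM with Agrimol B and 341, 345 and 340.2 FPKM in control libraries (1.08-fold, adjusted p = 0.0166). Its call was lost without Agrimol B replicate 2 (adjusted p = 0.0531), without a variance trend (0.0607) and with median-ratio scaling (0.268), within a range of 0.000707 to 0.268.

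Neither PSMB5 nor PSMB6 passed, so of the catalytic subunits PSMB7 alone was called, and the differences between them were not tested. PSMB5 stood at 72.2, 53.0 and 55.2 FPKM with Agrimol B and 68.5, 69.3 and 76.1 FPKM in control libraries. Its Agrimol B replicate 1 lay among the control values, and without that library the adjusted p of 0.129 became 0.00675 (log2 difference -0.39 in place of -0.25). PSMB6 stood at 125, 127 and 127 FPKM with Agrimol B and 152, 136 and 126 FPKM in control libraries (adjusted p = 0.196). PSMB3 stood at 163, 171 and 165 FPKM with Agrimol B and 187, 159 and 191 FPKM in control libraries, and the adjusted p of 0.296 became 0.0197 without control replicate 2. PSMB1 stood at 209, 213 and 207 FPKM with Agrimol B and 205, 202 and 202 FPKM in control libraries (log2 difference 0.05, adjusted p = 0.254), but its log2 difference was -0.03 with median-ratio scaling and 0.10 (adjusted p = 0.0334) with quantile normalization.

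The ATPase ring of the 19S base changed in both directions. Of its 6 genes, PSMC4 rose and PSMC1, PSMC2 and PSMC3 fell, and all 4 kept their calls under the 13 alternatives run. So 66.7% changed, where 52.0% of all tested genes did, with 30.6% rising and 21.4% falling. PSMC4 (chromosome 19, 39971005 to 39981441, plus strand) stood at 95.4, 98.0 and 100.4 FPKM with Agrimol B and 73.4, 78.5 and 75.2 FPKM in control libraries. It was 1.29-fold higher, the lowest adjusted p of the 45 genes (log2 difference 0.37 ± 0.04 SE, adjusted p = 0.000778). PSMC2 (chromosome 7, 103344254 to 103369395, plus strand) stood at 35.1, 33.2 and 36.3 FPKM with Agrimol B and 43.9, 42.6 and 45.8 FPKM in control libraries. At 1.27-fold it was the largest fall among the genes that passed (log2 difference -0.33 ± 0.05 SE, adjusted p = 0.00253). PSMC3 (chromosome 11, 47418769 to 47426473, minus strand) stood at 148, 149 and 149 FPKM with Agrimol B and 172, 178 and 176 FPKM in control libraries (1.18-fold lower, adjusted p = 0.00135). PSMC1 stood at 53.7, 50.1 and 53.4 FPKM with Agrimol B and 63.1, 63.7 and 58.6 FPKM in control libraries (1.18-fold lower, adjusted p = 0.01003). GENCODE lists 13 pseudogenes named after PSMC1, and reads shared with them could not be told apart.

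The remaining ATPases did not pass. PSMC5 stood at 73.3, 69.3 and 72.7 FPKM with Agrimol B and 74.5, 86.6 and 84.6 FPKM in control libraries (adjusted p = 0.0544). It passed without control replicate 1 (0.0102), with median-ratio scaling (0.0189) and with quantile normalization (0.0323). PSMC6 stood at 62.2, 59.1 and 59.0 FPKM with Agrimol B and 65.3, 60.1 and 63.7 FPKM in control libraries (adjusted p = 0.274). Because the ATPases form a ring with 1 copy of each, ratios within a library are given as a description, chosen after the values were seen. PSMC4 over PSMC2 was 2.72, 2.96 and 2.77 with Agrimol B and 1.67, 1.84 and 1.64 in control libraries. PSMC4 over PSMC3 was 0.644, 0.659 and 0.672 with Agrimol B and 0.427, 0.441 and 0.428 in control libraries. A single scaling factor per library leaves these ratios as they are. With quantile normalization PSMC4 over PSMC2 was 2.76 to 3.02 with Agrimol B and 1.63 to 1.83 in control libraries, and PSMC4 over PSMC3 was 0.632 to 0.659 with Agrimol B and 0.440 to 0.456 in control libraries.

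**Figure D2:**
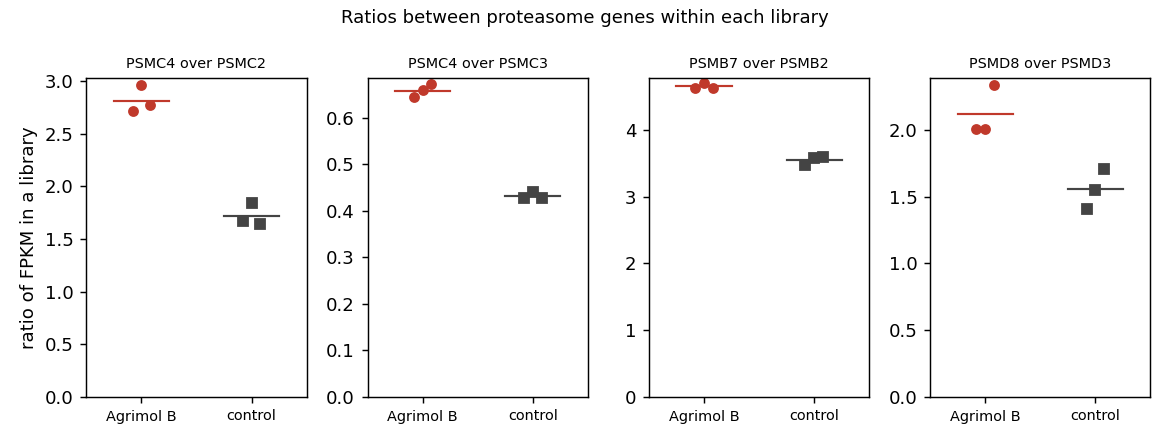
Ratio of the FPKM of 2 proteasome genes within each library, with Agrimol B libraries as red circles, control libraries as grey squares and group means as lines (n = 3 each; axes start at 0). The Agrimol B libraries stand above the control libraries in all 4 panels, for example at 4.63 to 4.71 against 3.47 to 3.59 for PSMB7 over PSMB2, and 2.01 to 2.34 against 1.41 to 1.71 for PSMD8 over PSMD3. The pairs were chosen after the values were seen, each with a risen gene over a gene whose mean was lower with Agrimol B. The separation therefore follows largely from that choice and is a description, not a test. Of the ratios not plotted, PSMB7 over PSMB5 and over PSMB10 stood higher with Agrimol B too. PSMB6 over PSMB9 and PSMB5 over PSMB8 overlapped between groups.

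The symbol rule took in 3 subunits of the base without ATPase activity. It left out a further one, ADRM1, which fell (limma adjusted p = 0.0472) and is described with the partners below. PSMD2, on which proteins that deliver ubiquitinated substrates dock, and the ubiquitin receptor PSMD4 rose, and PSMD1 did not pass. Of the 3, 66.7% changed, where 52.0% of all tested genes changed and 30.6% rose. PSMD2 (chromosome 3, 184298709 to 184309054, plus strand) stood at 144, 162 and 139.6 FPKM with Agrimol B and 95.4, 127 and 103 FPKM in control libraries. This was the largest fold among the risen genes, at 1.37-fold, with no overlap (log2 difference 0.46 ± 0.12 SE, adjusted p = 0.0181). The call was lost without Agrimol B replicate 2 (0.0560) or without control replicate 3 (0.0567), and the adjusted p ranged from 0.00434 to 0.0567 over the alternatives. PSMD4 stood at 151, 153 and 161 FPKM with Agrimol B and 129.997, 131 and 132 FPKM in control libraries (1.19-fold higher, adjusted p = 0.00250), and this call was kept under all 13 alternatives. PSMD1 stood at 80.7, 83.0 and 82.3 FPKM with Agrimol B and 81.9, 106 and 95.1 FPKM in control libraries. Its adjusted p of 0.127 became 0.0142 without control replicate 1, the control value nearest to the Agrimol B values.

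Of the genes of the lid, which removes ubiquitin chains, the symbol rule took in 8. Of these, 1 rose and 0 fell by limma, with 1 higher and 0 lower at an unadjusted p under 0.05. This is 12.5% changed, where 52.0% of all tested genes changed and 30.6% rose. At the unadjusted threshold at least 30.6% were higher, since every risen gene also meets it. The lid subunit SEM1 has another symbol, is counted with the partners below and did not pass (limma adjusted p = 0.589). The riser was PSMD8 (chromosome 19, 38374536 to 38383824, plus strand), the subunit known to join the lid last. It stood at 159, 158 and 165 FPKM with Agrimol B and 122, 123 and 134 FPKM in control libraries, 1.27-fold higher (log2 difference 0.34 ± 0.05 SE, adjusted p = 0.00173), under all 13 alternatives. The deubiquitinase PSMD14 stood at 90.1, 86.9 and 87.5 FPKM with Agrimol B and 83.1, 84.4 and 85.5 FPKM in control libraries. Its values did not overlap, yet the difference of 1.04-fold did not pass (95% interval -0.02 to 0.15 on the log2 scale, adjusted p = 0.172), and its log2 difference was -0.01 with median-ratio scaling. Its neighbour in the lid, PSMD7, stood at 63.2, 61.4 and 63.9 FPKM with Agrimol B and 62.8, 56.6 and 56.8 FPKM in control libraries (adjusted p = 0.165; 0.0406 without control replicate 1).

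The remaining subunits of the lid overlapped between groups. PSMD13 stood at 51.2, 51.5 and 44.9 FPKM with Agrimol B and 36.5, 31.1 and 48.1 FPKM in control libraries. Control replicate 3 lay among the Agrimol B values, and the adjusted p of 0.0980 became 0.0103 without it (log2 difference 0.53 in place of 0.36). PSMD12 stood at 45.3, 34.1 and 31.3 FPKM with Agrimol B and 38.3, 27.1 and 32.4 FPKM in control libraries (adjusted p = 0.446). PSMD3 stood at 79.0, 78.7 and 70.7 FPKM with Agrimol B and 86.6, 79.2 and 78.6 FPKM in control libraries (adjusted p = 0.244). For PSMD6 the values were 61.4, 59.3 and 51.5 FPKM with Agrimol B and 61.9, 57.0 and 59.7 FPKM in control libraries (adjusted p = 0.578). PSMD11 was the least abundant lid transcript, at 15.5, 17.7 and 16.7 FPKM with Agrimol B and 18.2, 19.8 and 17.0 FPKM in control libraries (adjusted p = 0.179).

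**Figure D3:**
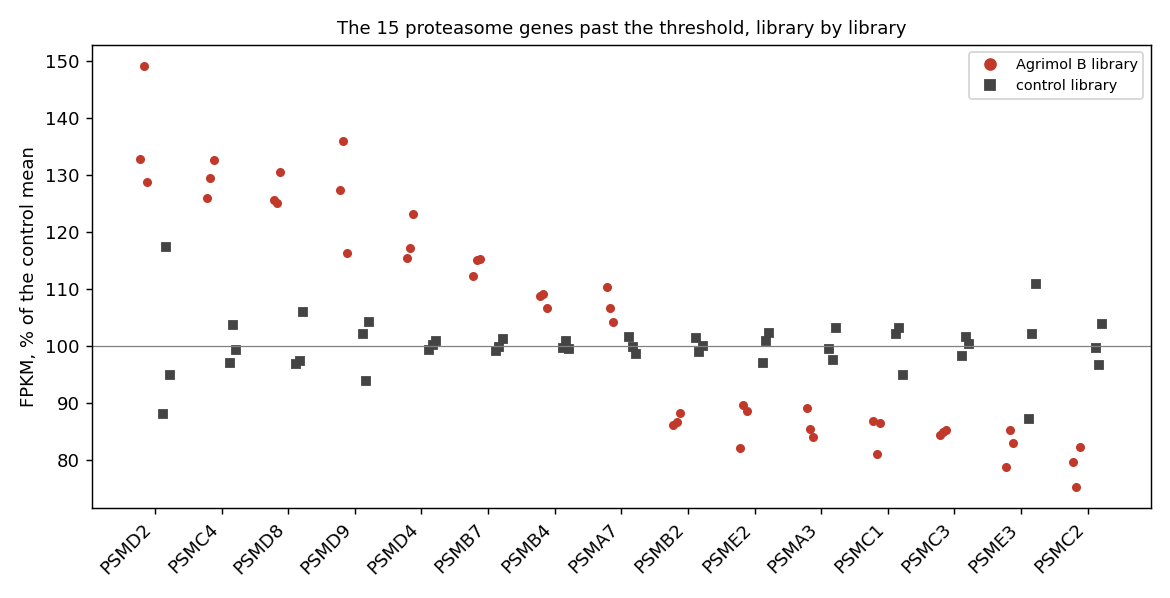
FPKM of each library as a percentage of the control mean for the 15 proteasome genes that rose or fell, ordered from the largest rise to the largest fall; red circles are Agrimol B libraries and grey squares control libraries. In all 15 genes the 3 red circles lie on 1 side of the 3 grey squares, and PSMD2 and PSME3 have the widest control spread (control SD over mean 15.3% and 12.0%). The 15 genes were chosen by the test on these same values, so the separation of circles and squares largely follows from the choice. Of all tested genes, 62.2% had groups that did not overlap.

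Of the 4 activators of the 20S core, 2 fell and 2 did not pass, where 52.0% of all tested genes changed and 21.4% fell. PSME1 and PSME2 form the PA28 alpha-beta ring, known for its part in antigen processing, PSME3 is the nuclear PA28 gamma, and PSME4 is PA200. All Agrimol B values lay below all control values in each of the 4 genes, as in 26.0% of all tested genes. By limma 0 rose, and 3 were lower at an unadjusted p under 0.05. At that threshold at least 21.4% of all tested genes were lower, since every fallen gene also meets it. PSME2 stood at 38.3, 41.9 and 41.4 FPKM with Agrimol B and 45.4, 47.1 and 47.8 FPKM in control libraries (1.15-fold lower, adjusted p = 0.0156; 0.0513 without control replicate 3). PSME3 stood at 51.1, 55.3 and 53.8 FPKM with Agrimol B and 56.5, 66.2 and 72.0 FPKM in control libraries. It was 1.22-fold lower (adjusted p = 0.0483), but it no longer passed after any of 5 libraries was dropped, all but control replicate 1 (0.0782 to 0.127), without a filter (0.0566) and without a variance trend (0.0553), within a range of 0.00784 to 0.127. PSME1 stood at 44.7, 47.0 and 44.4 FPKM with Agrimol B and 48.7, 48.9 and 53.6 FPKM in control libraries (adjusted p = 0.0573). PSME4 stood at 17.3, 16.4 and 15.3 FPKM with Agrimol B and 17.5, 17.6 and 17.7 FPKM in control libraries (adjusted p = 0.159). Both passed with median-ratio scaling (PSME1 0.0181 and PSME4 0.0409) and with quantile normalization (0.0379 and 0.0300).

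The chaperones of the 20S core had a median log2 difference of 0.01. Of POMP, which completes the assembly of the core, and PSMG1 to PSMG4, which build the alpha ring, 0 of 5 rose or fell by limma, and 0 did at an unadjusted p under 0.05. The share changed among all tested genes was 52.0%. POMP stood at 103, 100.2 and 101 FPKM with Agrimol B and 97.0, 102 and 99.0 FPKM in control libraries. Its 95% interval ran from 0.963-fold to 1.09-fold, and its log2 difference of 0.03 was -0.04 with median-ratio scaling. PSMG2 stood at 67.3, 69.3 and 66.3 FPKM with Agrimol B and 64.4, 66.3 and 71.3 FPKM in control libraries (0.924-fold to 1.09-fold), with a log2 difference of 0.01 that was -0.06 with median-ratio scaling. PSMG1 (55.0, 62.1 and 57.9 FPKM with Agrimol B, 57.6, 58.0 and 43.8 FPKM in control libraries) and PSMG3 (29.8, 34.7 and 40.3 FPKM, and 43.9, 31.0 and 35.7 FPKM) had wider intervals. PSMG4 stood at 23.7, 27.6 and 22.2 FPKM with Agrimol B and 25.3, 26.4 and 26.1 FPKM in control libraries.

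Among the 3 chaperones of the 19S base, PSMD9 rose (33.3% changed, against 52.0% of all tested genes). It stood at 16.9, 18.1 and 15.5 FPKM with Agrimol B and 13.6, 12.5 and 13.8 FPKM in control libraries, 1.27-fold higher (log2 difference 0.32 ± 0.07 SE, adjusted p = 0.0121), under all 13 alternatives. It overlaps WDR66 and 2 other annotated genes on its strand. PSMD10, also called gankyrin, stood at 18.5, 16.8 and 23.0 FPKM with Agrimol B and 12.5, 17.0 and 17.0 FPKM in control libraries (adjusted p = 0.146). PSMD5 stood at 23.9, 25.3 and 24.0 FPKM with Agrimol B and 23.6, 24.2 and 25.3 FPKM in control libraries, with a 95% interval of 0.925-fold to 1.09-fold. Its log2 difference of 0.004 was -0.06 with median-ratio scaling. PSMC3IP, the recombination cofactor, stood at 16.6, 19.997 and 22.1 FPKM with Agrimol B and 17.6, 17.0 and 16.5 FPKM in control libraries (adjusted p = 0.184; 0.0190 without Agrimol B replicate 1).

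NFE2L1 (chromosome 17, 48048329 to 48061487, plus strand) had the largest fold of the 45 genes and did not pass the test. It stood at 48.5, 42.7 and 48.4 FPKM with Agrimol B and 37.0, 21.3 and 36.0 FPKM in control libraries. All Agrimol B values were higher, and control replicate 2 stood apart from the other control values. The ratio of means was 1.48-fold (log2 difference 0.59 ± 0.21 SE, 95% interval 0.07 to 1.10, adjusted p = 0.0575). Without control replicate 2 the log2 difference was 0.34 and passed (adjusted p = 0.0169), and it was 0.72 without control replicate 1 (adjusted p = 0.0475). The size of the difference thus changed with the control library left out, while the direction held under each of the 13 alternatives.

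**Figure D4:**
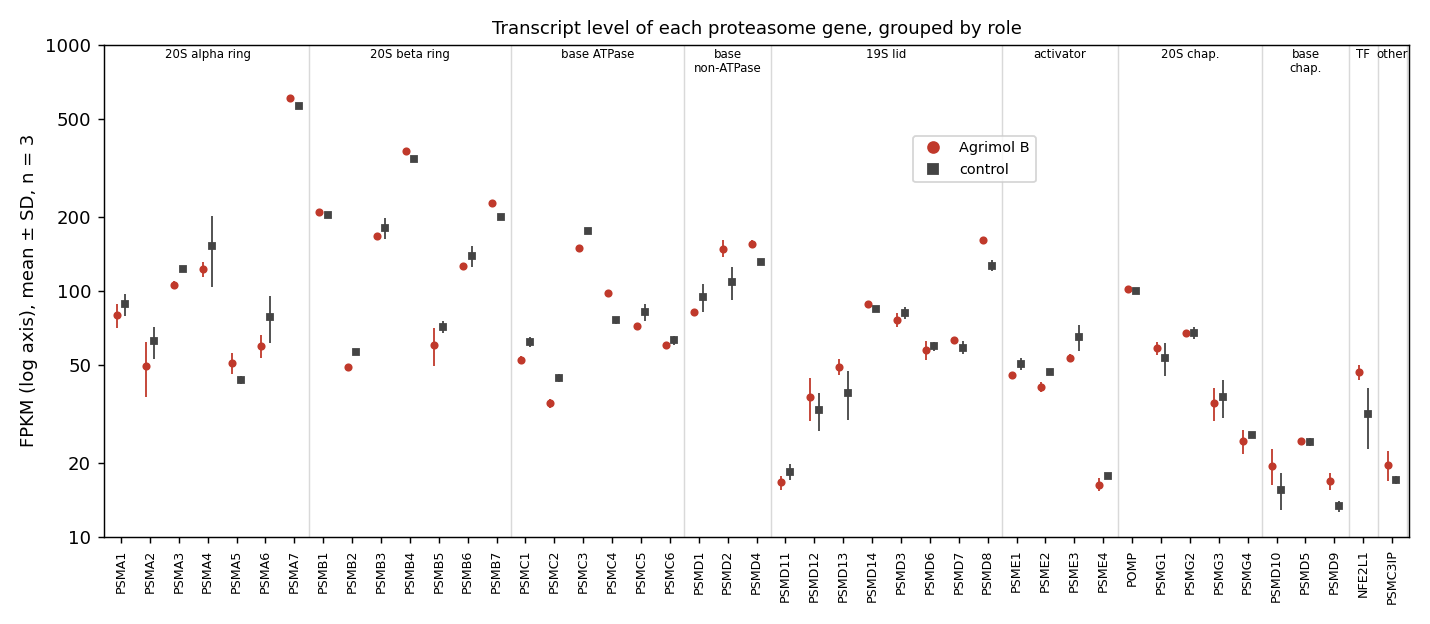
Mean FPKM ± SD (n = 3 libraries per group, log axis) of the 45 genes by role, Agrimol B in red beside control in grey; chap. marks assembly chaperones and TF the transcription factor NFE2L1. Mean levels over the 6 libraries run from 15.1 FPKM (PSMD9) to 585 FPKM (PSMA7), and for most genes the groups lie close together beside that range.

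Levels differed far more between subunits than between groups, although the complex holds equal numbers of most of them. In control libraries the alpha ring genes averaged 43.4 to 565 FPKM and the ATPase genes 44.1 to 175 FPKM. The symbol rule took in 31 subunits of the 20S core and the 19S cap. Their summed FPKM was 3618 to 3720 with Agrimol B and 3593 to 3660 in control libraries, and these ranges overlap. The cap subunits ADRM1 and SEM1, which have other symbols, are in none of the sums given here. For the 14 genes of the 20S core the sums were 2232 to 2312 with Agrimol B and 2247 to 2350.0 in control libraries. For the 17 genes of the 19S cap they were 1386 to 1408 with Agrimol B and 1309 to 1352 in control libraries. Within the cap, the ATPases summed lower (458 to 471 FPKM with Agrimol B, 492 to 509 FPKM in control libraries). The lid (532 to 565 FPKM, and 478 to 512 FPKM) and the base subunits without ATPase activity (376 to 398 FPKM, and 307 to 364 FPKM) summed higher with Agrimol B. Left out of the sum of these base subunits was ADRM1, which fell. It stood at 159, 167 and 164 FPKM with Agrimol B and 172, 177 and 180 FPKM in control libraries. Sums that include ADRM1 are not given, so the order holds only for the genes summed. Of these sums, that of the ATPases alone kept its order under both scalings, added after seeing the data: 448 to 458 FPKM with Agrimol B and 502 to 520.1 FPKM in control libraries with median-ratio scaling, and 459 to 474 FPKM with Agrimol B and 493 to 504 FPKM in control libraries with quantile normalization. With median-ratio scaling the groups overlapped for the 19S cap (1348 to 1372 FPKM with Agrimol B, 1336 to 1381 FPKM in control libraries), the lid and the base subunits without ATPase activity. The sum of the 31 subunits stood lower with Agrimol B under median-ratio scaling (3517 to 3616 FPKM, against 3686 to 3734 FPKM in control libraries) and higher under quantile normalization (3701 to 3807 FPKM, against 3526 to 3609 FPKM in control libraries). The sum of the 20S core turned round in the same way.

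Replicate spread was uneven among the genes. The SD within the control group ran from 0.588% of the mean (PSME4) to 32.4% (PSMA4), and within the Agrimol B group from 0.486% (PSMC3) to 24.8% (PSMA2). In 16 of the 45 genes it exceeded 10% in at least 1 group, and 2 of these 16 (PSMD2 and PSME3) passed the test. GENCODE lists another gene on the same strand within 10 of the 45 and pseudogenes named after 10 of them. The sources used here do not say how the authors assigned shared reads.

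The immunoproteasome subunits replace PSMB6, PSMB7 and PSMB5 in cells exposed to interferon. By limma 0 of 3 rose or fell, where 52.0% of all tested genes did, and 0 did at an unadjusted p under 0.05. PSMB8 stood at 17.5, 16.6 and 17.9 FPKM with Agrimol B and 17.2, 17.9 and 18.1 FPKM in control libraries. PSMB9 stood at 3.27, 4.43 and 4.63 FPKM with Agrimol B and 4.90, 5.26 and 4.77 FPKM in control libraries (adjusted p = 0.133). PSMB10 stood at 15.7, 10.7 and 13.1 FPKM with Agrimol B and 21.0, 15.7 and 15.6 FPKM in control libraries (adjusted p = 0.0999; 0.0198 with the replicate number used as a block). The constitutive forms were more abundant in every library, by 3.08 to 4.12 times with Agrimol B and 3.87 to 4.21 times in control libraries for PSMB5 over PSMB8.

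Of 17 proteasome parts and partners with other symbols, 3 rose and 2 fell, or 29.4%, where 52.0% of all tested genes changed (median log2 difference 0.01). AKIRIN2, which carries proteasomes into the nucleus, stood at 34.7, 39.5 and 39.2 FPKM with Agrimol B and 23.0, 22.3 and 24.8 FPKM in control libraries (1.62-fold, adjusted p = 0.000529). UCHL5, a deubiquitinase of the cap, stood at 38.4, 36.9 and 35.7 FPKM with Agrimol B and 26.3, 25.7 and 28.1 FPKM in control libraries (1.39-fold, adjusted p = 0.000809). ZFAND2A, an arsenite-inducible partner of the cap, stood at 11.6, 10.2 and 13.8 FPKM with Agrimol B and 4.88, 8.16 and 7.28 FPKM in control libraries (1.76-fold, adjusted p = 0.0174; 0.0550 without Agrimol B replicate 3). The ratios of means of these 3 genes exceeded those of all risen subunits, a comparison made after the values were seen. ADRM1, the receptor on which UCHL5 docks, and the substrate shuttle RAD23B fell. They were named after their values were seen, with 1.08-fold lower means for ADRM1 (adjusted p = 0.0472; lost under 10 of 13 alternatives) and 1.196-fold lower means for RAD23B (adjusted p = 0.0288; lost without Agrimol B replicate 2 or 3 or control replicate 1 or 2).

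Of 14 genes that process NFE2L1 or pair with its protein, 6 rose and 2 fell, or 57.1%, near the 52.0% of all tested genes (median log2 difference 0.43). MAFG, a small MAF protein with which NFE2L1 binds DNA, stood at 29.9, 31.7 and 30.9 FPKM with Agrimol B and 15.6, 17.5 and 14.9 FPKM in control libraries (1.93-fold, adjusted p = 0.000170). SYVN1, a ubiquitin ligase of the endoplasmic reticulum that marks NFE2L1 for degradation, stood at 17.5, 17.4 and 18.9 FPKM with Agrimol B and 10.99, 9.71 and 9.69 FPKM in control libraries (1.77-fold, adjusted p = 0.000285). Its adaptor SEL1L stood at 29.1, 28.9 and 30.8 FPKM with Agrimol B and 18.2, 19.9 and 18.3 FPKM in control libraries (1.57-fold, adjusted p = 0.000270). The other risen genes, outside the naming rule as are the rest of this list, were NGLY1, which removes sugars from NFE2L1, MAFK and BTRC. The fallen genes were VCP, the ATPase that extracts proteins from the membrane, and its cofactor UFD1. VCP, named after its values were seen, stood at 80.0, 79.3 and 84.4 FPKM with Agrimol B and 113, 109 and 111 FPKM in control libraries (adjusted p = 0.000299). DDI2, the protease that activates NFE2L1, and the related factor NFE2L2 did not pass (adjusted p = 0.108 and 0.529).

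The TRiC chaperonin is another large ring complex of the cytosol, with 8 subunit genes. By limma 0 rose and 3 fell, with 0 higher and 4 lower at an unadjusted p under 0.05 (median log2 difference -0.14). That is 37.5% changed, where 52.0% of all tested genes changed and 21.4% fell. At the unadjusted threshold at least 21.4% of all tested genes were lower, since every fallen gene also meets it. CCT3 stood at 149.5, 156 and 169 FPKM with Agrimol B and 219.7, 208 and 198 FPKM in control libraries (1.32-fold lower, adjusted p = 0.00262). CCT8 (1.21-fold lower, adjusted p = 0.00400) and CCT2 (1.16-fold lower, adjusted p = 0.0328) fell too, and the call of CCT2 was lost under 5 of 13 alternatives, among them without Agrimol B replicate 1 or 3 or control replicate 2 or 3 (0.0745 to 0.0952). Whether the proteasome and TRiC genes differ in their response was not tested.

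**Figure D5:**
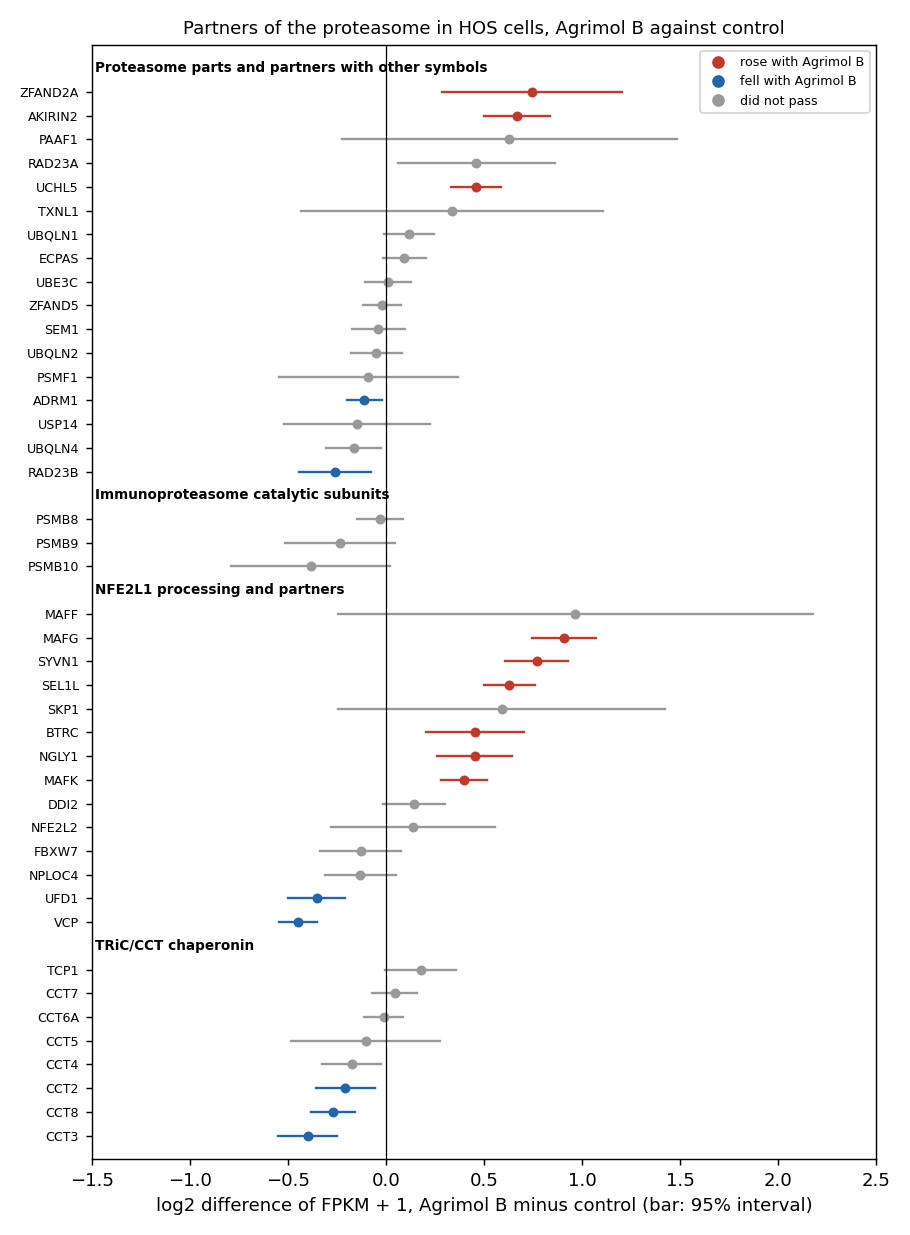
Log2 difference of FPKM + 1, Agrimol B minus control, with 95% intervals from limma, for genes outside the 45, by list (n = 3 libraries per group; colours as in the plot of the proteasome genes by role). MAFG, SYVN1, ZFAND2A and AKIRIN2 are the red points farthest to the right (0.67 to 0.91), and VCP is the lowest blue point (-0.45).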

How the data were processed

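RNA of 6 HOS libraries (stranded mRNA kit, per the labels' protocols) was measured by sequencing. The authors deposited 1 table of FPKM values with 1 column per library, and HISAT, Trimmomatic, cutadapt, FastQC and hg38 appear in the submitters' processing notes. The sources used here name neither the program behind the FPKM values nor its annotation. Control columns were matched to samples whose descriptions have the same letters in another order and the same number.

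The 12143 genes averaging 1 FPKM or more were tested two-sided on log2(FPKM + 1) with limma 3.58.1 (R 4.3.3; group term, trended empirical Bayes), and p-values were Benjamini-Hochberg adjusted over all of them. A difference on this scale understates changes of low genes. The code of the fit was run on simulated data. These held fewer changed genes, with larger changes than those of the proteasome genes that passed, so the run does not measure sensitivity here. Python 3.11.15 was used otherwise. Coordinates are from GENCODE 29 (GRCh38), promoters from RefSeq (GRCh38.p14).

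The members and lists were chosen with earlier results of these data known. All members were named, and from each other list up to 3 changed genes with the largest differences; other names, among them the 3 immunoproteasome genes and the markers, were added with values known. The 13 alternatives were another pseudocount, 2 filters, 2 scalings, a replicate block, no variance trend and each library left out. Another list of 6 genes is not reported here.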

Additional observations from a re-analysis of the deposited data

How the results depend on the processing

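Of the 15 changed proteasome genes, 10 kept their call under all 13 alternatives and 5 lost it under at least 1 (PSMA7, PSMB4, PSMD2, PSME2 and PSME3), while 13 of the 30 others passed under at least 1. The number changed ran from 11 to 18 when a library was left out, with 5 to 9 rises and 6 to 9 falls, and was 16 with median-ratio scaling and 19 with quantile normalization. The median log2 difference of the 45 genes, -0.07, was -0.14 with median-ratio scaling, which moved the median of all genes from 0.07 to 0.003. The counts over all genes stayed within 1.5 times under every alternative.

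The replicate number used as a block gave the NFE2L1 difference of 0.59 an adjusted p of 0.0308, left 15 changed proteasome genes and 5776 changed genes in all, and lost PSMA7 (0.0602). Among the partner lists it lost ADRM1 (0.0671), and PSMB10 passed (log2 difference -0.38, adjusted p = 0.0198). Whether the numbers pair the libraries is not stated. The correlations of same-numbered deviations were 0.04, -0.01 and -0.01, and those of differently numbered ones ran from -0.0659 to 0.0691. They show no sign of a pairing, but with so few libraries they cannot exclude one. With libraries left out, the NFE2L1 difference ran from 0.34 to 0.72 and passed without control replicate 1 or 2.

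Differences near 0 changed sign with median-ratio scaling in PSMB1 (-0.0254), PSMD14 (-0.00686), POMP (-0.0363), PSMG2 (-0.0635) and PSMD5 (-0.0641), and with quantile normalization in PSMG2 (-0.000424) and PSMD5 (-0.0610). With libraries left out, the difference ran from -0.104 to 0.0212 in PSMD6, -0.0245 to 0.0477 in PSMG2, -0.187 to 0.0578 in PSMG3 and -0.0217 to 0.0306 in PSMD5. None of the differences given in this paragraph passed. PSMB1, of the opposite sign with quantile normalization (0.10), did pass there (limma adjusted p = 0.0334). The unknown number of reads limits what can be said of single values.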
